A study of Mus musculus with 24 samples.

Results

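The genes that write, maintain and remove DNA methylation were examined in mouse embryonic stem cells (mESC) and in neural progenitor cells (NPC) derived from them. They were chosen by gene symbol: the DNA methyltransferases Dnmt1, Dnmt3a and Dnmt3b, the catalytically inactive cofactor Dnmt3l, the maintenance factor Uhrf1, and the dioxygenases Tet1, Tet2 and Tet3. All 8 were analysed among the 17501 genes of the mESC table and 7 among the 16024 genes of the NPC table, while Dnmt3l was not analysed in NPC. Each passed the filter on low values, a normalised CPM (the authors' unit of expression level, scaled to library size) of at least 1 in at least 2 libraries, which left 13916 genes tested in mESC and 13206 in NPC.

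The study sequenced total RNA from 24 libraries, 2 for each of 6 Htt genotypes in each cell type, and the series text calls the 2 libraries biological samples. Htt was intact in the wild type (WT), knocked out in the KO, and carried in 1 allele a knocked-in CAG tract of 20 repeats in Q20, 50 in Q50, 92 in Q92 and 111 in Q111. The growth protocol gives the third length as 89 repeats where the titles give 92. The mESC were grown with serum and LIF on gelatin with irradiated mouse embryonic fibroblast feeders, and the NPC were made from mESC in N2B27 medium and then expanded on laminin with FGF and EGF. Clones per genotype are not named in the labels, so a repeat length cannot be told apart from the line that carries it. For comparisons of genotypes, p-values measure only the spread between the 2 libraries of a group, pooled over the groups of a fit. For slopes with repeat length the spread also holds the departures of lines from a straight line. For the replicate comparison it is the spread of the replicate difference over genotypes.

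Depth was 58546211 to 81502284 reads a library for mESC and 48525333 to 118038952 for NPC. Htt served as a check of the labels: its level in NPC was 100.1 and 94.9 CPM in KO against 137 and 177 in WT. That log2 change of -0.67 (SE 0.14, limma's adjusted p = 0.0673) was not called. In mESC the library labelled KO 1 had 139 CPM, above the WT libraries at 124 and 113, and the library labelled KO 2 had 68.5. Directions drawn from the mESC KO group therefore rest on the labels. The pluripotency gene Pou5f1 was present at 279.7 to 880.0 CPM in all mESC libraries and at 0 to 0.405 CPM in 10 of the 12 NPC libraries, with 90.1 and 87.4 CPM in the Q20 NPC libraries. The summed level of 10 neural progenitor markers was 4044 to 9411 CPM in NPC and 144.9 to 554 CPM in mESC, lowest in NPC in the Q20 libraries. In these bulk libraries fewer cells of a type and less RNA per cell cannot be told apart.

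Methylation of cytosine in CpG pairs is set by DNMT3A and DNMT3B, which DNMT3L assists, and is copied after each round of DNA replication by DNMT1, which UHRF1 brings to newly copied DNA. TET enzymes oxidise 5-methylcytosine, which leads to its loss by dilution or by base excision repair. Pluripotent cells are known for high Dnmt3b, Dnmt3l, Tet1 and Tet2 and for low Tet3, and neural cells for Dnmt3a and Tet3.

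On GRCm38 with GENCODE M21 annotation, Dnmt1 lies on chromosome 9 from 20907209 to 20959888 (minus strand) and Uhrf1 on chromosome 17 from 56303321 to 56323486 (plus). Dnmt3b lies on chromosome 2 from 153649450 to 153687730 (plus), Dnmt3a on chromosome 12 from 3806007 to 3914443 (plus) and Dnmt3l on chromosome 10 from 78041947 to 78063622 (plus). Tet1 lies on chromosome 10 from 62804570 to 62908996 (minus), Tet2 on chromosome 3 from 133463679 to 133545139 (minus) and Tet3 on chromosome 6 from 83362373 to 83459084 (minus). Genes on the opposite strand overlap Dnmt3a (Dnmt3aos), Dnmt3b (Dnmt3bos), Dnmt3l (Aire), Tet2 (Gm42567) and Tet3 (B230319C09Rik). The use of strand in counting is not given in the sources used here, so reads of the overlapping genes cannot be told apart for these 5. Genes on the same strand overlap Dnmt1 (Mir7081), Tet1 (Gm48353 and Gm26479) and Tet3 (Mir6374 and 5430434F05Rik), and how shared reads were counted is not given either.

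Promoter sequence is shown for Dnmt3b and for the genes that held a motif chosen after the data were seen. RefSeq promoter windows (GRCm38.p6) matched all 8 genes, and the 250 bases before each start were searched on both strands for TTTCGCGC or TTTGGCGC, letters known as the site of E2F factors, which drive genes of S phase. The motif stood in 215 of 32841 windows (0.6547%), and in a window of 205 of 27018 genes. Of the 8 genes it stood in 1 window each of Dnmt1 and Uhrf1, the pair that copies methylation during replication. Their stretches follow, 5′ to 3′ on the gene's strand, with the motif in capitals (in Dnmt1 it reads on the opposite strand).
Dnmt1, chr9:20952825-20952852: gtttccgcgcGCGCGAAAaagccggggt
Uhrf1, chr17:56304118-56304145: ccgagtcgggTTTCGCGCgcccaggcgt
The motif's first base is 219 bases before 1 RefSeq start of Dnmt1 and 185 bases before 1 RefSeq start of Uhrf1. Both genes have further RefSeq windows, which held no motif. Both stretches lie within the gene spans given above, since GENCODE and RefSeq also annotate starts further upstream. Of 16 listed S phase genes with a window, Mcm5, Mcm6 and Pola1 held the motif. A match is a description of the letters and shows no binding.

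The window before Dnmt3b, the gene with the widest range in NPC, is given on the plus strand with each CpG in capitals. It holds 21 CpG pairs and 75.2% G or C, where the median window of all genes holds 6 CpG pairs and 83.6% of windows hold fewer than 21. Windows of Dnmt1 (26), Dnmt3a (38 and 40), Uhrf1 (30) and Tet2 (51) hold more CpG pairs than that of Dnmt3b, whose sequence follows.
Dnmt3b, chr2:153649199-153649448: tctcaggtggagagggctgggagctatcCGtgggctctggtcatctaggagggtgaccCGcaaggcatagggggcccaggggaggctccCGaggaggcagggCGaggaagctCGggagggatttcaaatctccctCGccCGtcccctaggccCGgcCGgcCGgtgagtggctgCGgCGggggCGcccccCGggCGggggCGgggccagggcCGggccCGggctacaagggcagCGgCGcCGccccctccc

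Per kilobase of exon, the level in mESC, as the mean of the 12 libraries, was highest for Uhrf1 at 115.8 CPM per kb and Dnmt3l at 103 CPM per kb. Dnmt1 (70.1), Dnmt3b (64.1), Tet1 (29.8), Tet2 (11.4) and Dnmt3a (9.27 CPM per kb) followed, and Tet3 was lowest at 0.602 CPM per kb. The ranges over libraries of Uhrf1 (53.4 to 189.4), Dnmt3l (46.4 to 171), Dnmt1 (51.1 to 91.6) and Dnmt3b (31.6 to 103) overlapped, as did those of Tet2 (3.29 to 19.8) and Dnmt3a (7.00 to 12.6 CPM per kb). The range of Tet1 (16.5 to 43.0 CPM per kb) overlapped those of Dnmt3b and Tet2. In NPC the order was Dnmt1 at 71.1, Uhrf1 at 67.2, Dnmt3a at 10.6, Dnmt3b at 8.26, Tet2 at 5.28, Tet3 at 4.50 and Tet1 at 3.33 CPM per kb, as means over all 12 libraries. The ranges of Dnmt1 (28.4 to 103) and Uhrf1 (15.1 to 120.2) overlapped, as did those of Tet2 (2.42 to 9.06), Tet3 (2.77 to 6.21) and Tet1 (1.64 to 4.78 CPM per kb). The range of Dnmt3a (3.51 to 13.5 CPM per kb) overlapped those of Tet2, Tet3 and Tet1. The order also changed with genotype. In mESC, for example, Dnmt3l stood highest in Q111, and Dnmt3b stood above Dnmt1 in Q20 and Q111. In NPC Uhrf1 stood above Dnmt1 in Q111, Tet3 above Tet2 in Q50, Q92 and Q111, and Tet1 above Tet3 in Q20. The Dnmt3b mean rests on the Q20 libraries: in NPC of the other 5 genotypes Dnmt3b was the lowest of the 7 genes per kilobase, at 0.763 to 1.39 CPM per kb, and in Q20 it was the highest, at 44.2 CPM per kb.

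The tables of the cell types were normalised separately, so their levels stand side by side without a test. In WT, Tet1 had a mean of 399.5 CPM in mESC and 61.1 CPM in NPC, and Tet2 had 228 and 113 CPM. Tet3 stood the other way, at 9.39 CPM in mESC and 76.3 CPM in NPC. WT Dnmt3b had 295 CPM in mESC and 5.96 CPM in NPC, and WT Dnmt3a had 168 and 212 CPM. Tet3 was higher in NPC, and Tet1 and Dnmt3b higher in mESC, in the means of all 6 genotypes.

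**Figure D1:**
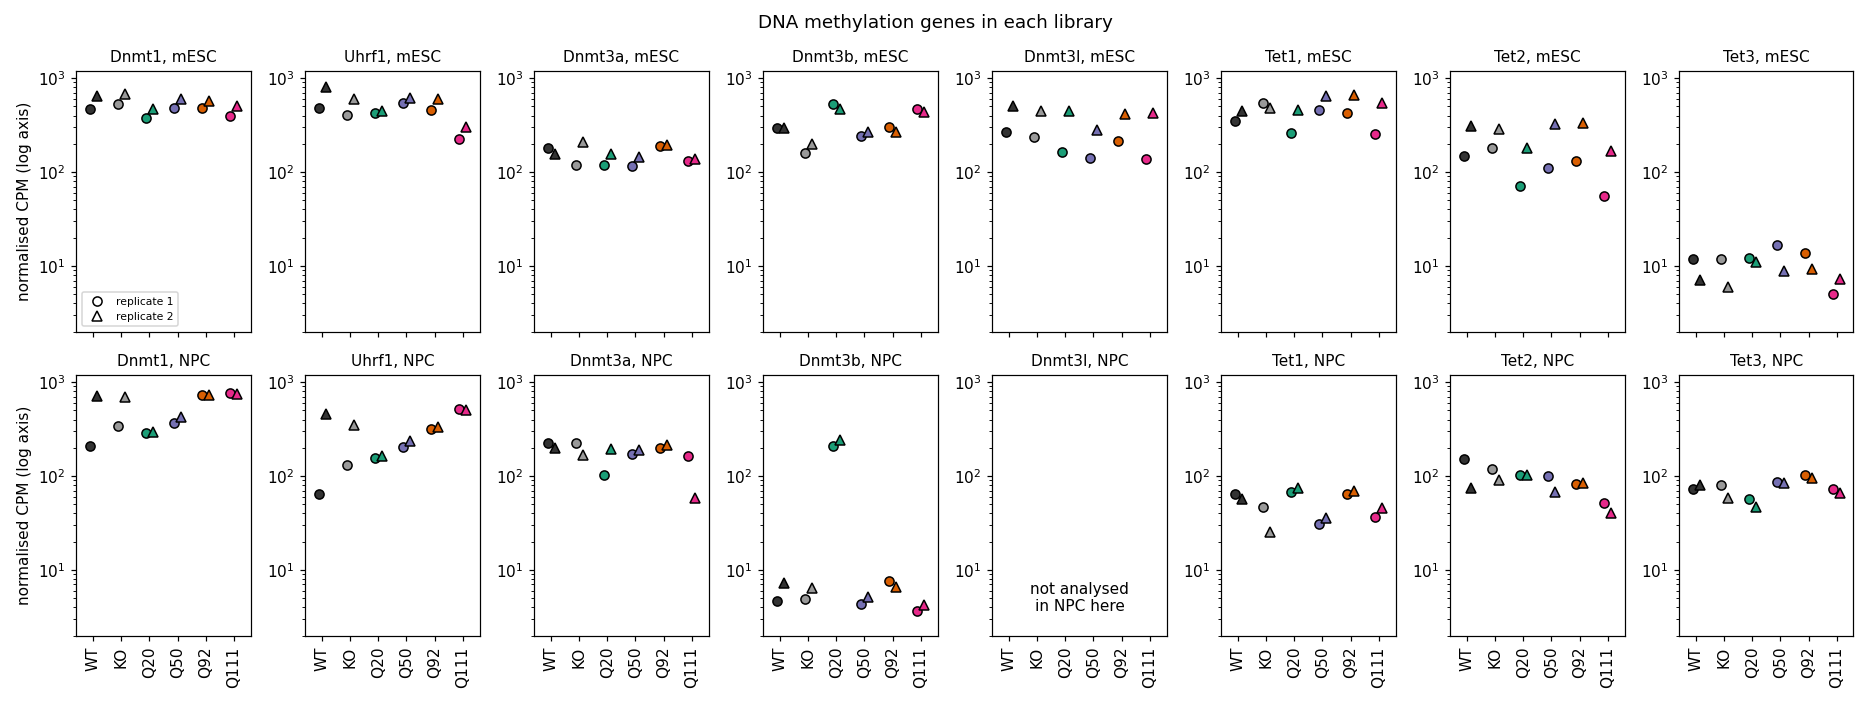
Normalised CPM (log axis) of each gene in each library, with mESC in the upper row and NPC in the lower row, by genotype; circles are replicate 1 and triangles replicate 2. In NPC Dnmt3b stands at 210.1 and 241 CPM in Q20 and at 3.61 to 7.64 CPM elsewhere, and Dnmt1 and Uhrf1 rise from Q20 to Q111.

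Among maintenance genes in NPC, Dnmt1 and Uhrf1 rose with repeat length across the 4 knock-in lines. Dnmt1 in NPC had 287 and 293 CPM in Q20, 366 and 427 in Q50, 733 and 723 in Q92, and 759.8 and 743 in Q111. The lines did not overlap and their levels followed the order of the repeat. Its log2 change over the span of 91 repeats from Q20 to Q111 was 1.48 (SE 0.14), with limma's adjusted p = 0.000838, or 2.78-fold on the log2(CPM + 1) scale used for all changes here.

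Uhrf1 in NPC had 157 and 164 CPM in Q20, 202 and 238 in Q50, 317 and 333 in Q92, and 512 and 507 in Q111. The 4 lines again stood apart in the order of repeat length. Its change over the span was 1.57 (SE 0.15), with limma's adjusted p = 0.000838, or 2.96-fold. The slope called 22% of all genes tested in NPC, and 4 of the 7 methylation genes, Dnmt1 and Uhrf1 rising and Dnmt3b and Tet2 falling. The median slope of the 7 genes was -0.29, against 0.04 over all genes tested.

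The WT and KO libraries of NPC spread more widely in both genes than the knock-in lines did. Dnmt1 had 209.5 and 719 CPM in WT and 340.2 and 693 in KO, and Uhrf1 had 64.4 and 461 CPM in WT and 129.6 and 349.9 in KO. In both genes the WT pair reached from below the Q20 libraries to near or above the Q92 libraries. Replicate 2 was the higher library in WT and KO. KO against WT was 0.32 (SE 0.51) for Dnmt1 and 0.30 (SE 0.78) for Uhrf1, with limma's adjusted p = 0.869 and 0.925.

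Genes of DNA synthesis rose with repeat length as well. The summed level of 20 S phase and replication genes in NPC was 1027 and 4096 CPM in WT, 2080 and 4760 in KO, 1713 and 1806 in Q20, 2558 and 2916 in Q50, 3724 and 3430 in Q92, and 5379 and 5511 in Q111. The low WT and KO libraries were those low in Dnmt1 and Uhrf1. Of the 20 genes 19 rose with repeat length and none fell (median slope 1.51), led by the cyclin gene Ccne2 (2.60, SE 0.51, limma's adjusted p = 0.0102), the ribonucleotide reductase subunit Rrm2 (2.44, SE 0.30, limma's adjusted p = 0.00179) and the licensing factor Cdt1 (1.97, SE 0.27, limma's adjusted p = 0.00288). Some lists of markers of other cells also held called genes with repeat length in NPC, where 10.1% of all genes were called lower: 3 of 6 astrocyte markers, 6 of 9 fibroblast markers and 1 of 6 neuron markers were lower and none higher. Of 4 pluripotency markers tested 2 were lower and 1 higher, of 10 neural progenitor markers 2 were lower and 2 higher, and of 6 early lineage markers limma called none, with 2 at an unadjusted p under 0.05. The part of replication genes or of such cells in the slope of Dnmt1 and Uhrf1 was not tested.

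With 1 mean value per line, so that 4 points carry the slope, limma's adjusted p was 0.295 for both Dnmt1 and Uhrf1. Rescaling every column to the same total left the slopes at 1.25 and 1.34. In the fit of all 6 genotypes, whose spread includes that of WT and KO, neither gene was called: Q111 against Q20 was 1.37 (SE 0.51, limma's adjusted p = 0.0775) for Dnmt1 and 1.66 (SE 0.78, limma's adjusted p = 0.143) for Uhrf1. In the same fit the test for any difference among genotypes gave limma's adjusted p = 0.214 and 0.423. Without the Q20 line, a test added after the data were seen, the slopes were 1.47 (SE 0.24, limma's adjusted p = 0.0164) and 1.71 (SE 0.25, limma's adjusted p = 0.0131).

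In mESC the slope of neither gene was called. Dnmt1 in mESC had 466 and 649 CPM in WT, 535 and 676 in KO, 377 and 471 in Q20, 478 and 596 in Q50, 477 and 578 in Q92, and 396 and 506 in Q111. Uhrf1 in mESC had 487 and 807 CPM in WT, 404 and 608 in KO, 428 and 443 in Q20, 545 and 610.1 in Q50, 461 and 594 in Q92, and 227 and 303 in Q111. Uhrf1 was lowest in both Q111 libraries, which overlapped no other group, while each Dnmt1 group overlapped several others. The mESC slopes were 0.09 (SE 0.22) for Dnmt1 and -0.58 (SE 0.36) for Uhrf1, limma's adjusted p = 1.00 for each. The difference of slopes, NPC minus mESC, was 1.38 (SE 0.26, limma's adjusted p = 0.00812) for Dnmt1 and 2.15 (SE 0.41, limma's adjusted p = 0.00933) for Uhrf1, in a fit that called 4.86% of 12321 genes. The summed S phase level in mESC ran only from 5053 to 6773 CPM.

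**Figure D2:**
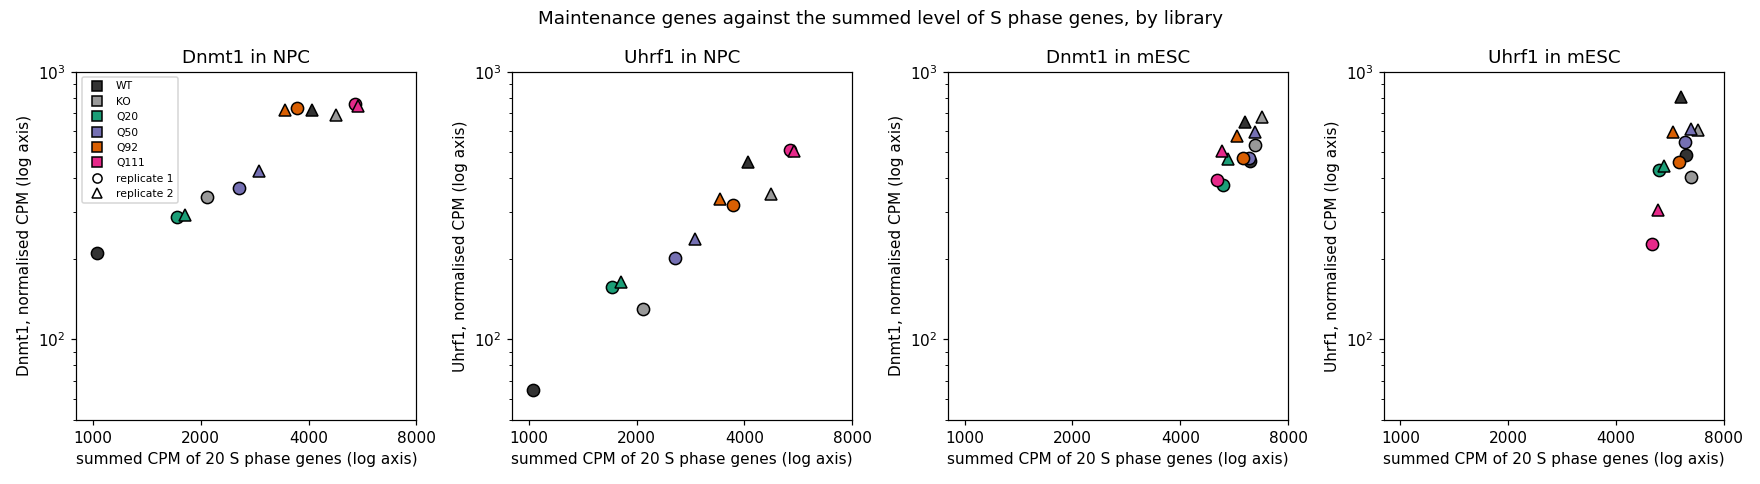
Level of Dnmt1 and Uhrf1 (normalised CPM, log axis) against the summed CPM of 20 S phase genes (log axis) in each library, NPC in the left panels and mESC in the right panels; colours are genotypes, circles replicate 1 and triangles replicate 2. The NPC libraries run from WT 1, at 1027 CPM of S phase genes and 64.4 CPM of Uhrf1, to Q111, while mESC libraries lie at 5053 CPM and above.

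By the rule of highest correlation over the 12 libraries of a table, the genes nearest to Dnmt1 in NPC were Topbp1, Exosc8 and Dnajc9 (Pearson r 0.994, 0.991 and 0.989), and those nearest to Uhrf1 were Cdc45, Chaf1b and Wdr62 (r 0.991, 0.990 and 0.989). Topbp1 and Cdc45 act in starting replication, and Chaf1b is a subunit of the chromatin assembly factor. In mESC the genes nearest to Uhrf1 were Chaf1a, Pros1 and Ccdc94 (r 0.958, 0.929 and 0.927) and those nearest to Dnmt1 were Zfp706, Pccb and Bicral (r 0.984, 0.982 and 0.981). These values describe libraries that share genotype, replicate number and scaling.

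Among the writers of new methylation, Dnmt3b was high in NPC of the Q20 line. In NPC it had 4.64 and 7.28 CPM in WT, 4.85 and 6.41 in KO, 210.1 and 241 in Q20, 4.39 and 5.19 in Q50, 7.64 and 6.57 in Q92, and 3.61 and 4.18 in Q111. Both Q20 libraries stood far above all 10 others, which lay within a range of 3.61 to 7.64 CPM. Q20 against WT was 5.05 (SE 0.24, limma's adjusted p = 5.63e-06), or 33.1-fold, the only one of the 7 genes called, in a comparison that called 14.5% of all genes tested.

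Against Q20, Dnmt3b in NPC was -5.29 in Q50 (SE 0.24, limma's adjusted p = 5.36e-06), -4.81 in Q92 (SE 0.24, limma's adjusted p = 5.59e-06) and -5.53 in Q111 (SE 0.24, limma's adjusted p = 3.86e-06). These comparisons share the Q20 libraries and called 3, 2 and 2 of the 7 genes, where 18.8%, 25.8% and 28.3% of all genes tested were called. The Dnmt3b slope with repeat length, -4.58 (SE 1.25, limma's adjusted p = 0.0342), rests on that line and was -0.12 without it (limma's adjusted p = 0.904). Leaving out any one of the Q20, Q92 or Q111 libraries also ended that call, with limma's adjusted p from 0.0554 (Q92 replicate 1) to 0.142 (Q20 replicate 1).

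Pou5f1 moved with Dnmt3b in NPC: it rose by 6.03 in Q20 against WT (SE 0.11, limma's adjusted p = 6.81e-08). Nanog, another pluripotency gene, had 13.0 and 13.7 CPM in the Q20 NPC libraries and 0.190 to 1.63 CPM in the other 10. Over the 7 of 10 pluripotency markers in the NPC table, the summed level was 108 and 107 CPM in Q20 and 4.76 to 26.7 CPM elsewhere. Pou5f1 and Nanog made up most of the Q20 sums. The rest of these markers summed to less in Q20 than in WT, KO, Q92 and Q111. In mESC the 10 markers summed to 2078 to 3916 CPM. The pluripotency markers Zfp42, Dppa5a and Utf1 were not analysed in NPC. Astrocyte markers (6 genes) were also highest in Q20, at 1366 and 1215 CPM against 24.0 to 876 CPM elsewhere, and fibroblast markers (10 genes) summed to 316 and 255 CPM in Q20, 900 and 921 CPM in Q50 and 7.46 to 41.0 CPM in the others. Early lineage markers (9 genes) summed to 33.5 and 37.5 CPM in Q20, against 2.17 to 40.2 CPM elsewhere, but 5 of them reached 1 CPM in each Q20 library and 0 to 2 did in the others. In Q20 against WT limma called 4 of their 6 tested genes higher and 1 lower (median 1.61). It called 3 of 6 neuron markers higher and 1 lower (median 1.18), where the median of all genes was -0.02. Of all genes tested, 9.97% were called higher and 4.57% lower. The summed level of the 6 neuron markers stood the other way, at 792 and 968 CPM in Q20 against 1636 and 1264 CPM in WT. The part of such cells in the Dnmt3b level was not tested.

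Dnmt3c, a tandem near-copy of Dnmt3b, had 4.00 and 3.89 CPM in the Q20 NPC libraries and 0.109 to 0.493 CPM in the others. Reads that fit both copies may be split between them, so its values are uncertain. The genes nearest to Dnmt3b over the 12 NPC libraries were Tnfsf11, Crybg2 and Arap3, each with r of 0.993, and such values rest on 2 libraries that stand apart from 10.

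**Figure D3:**
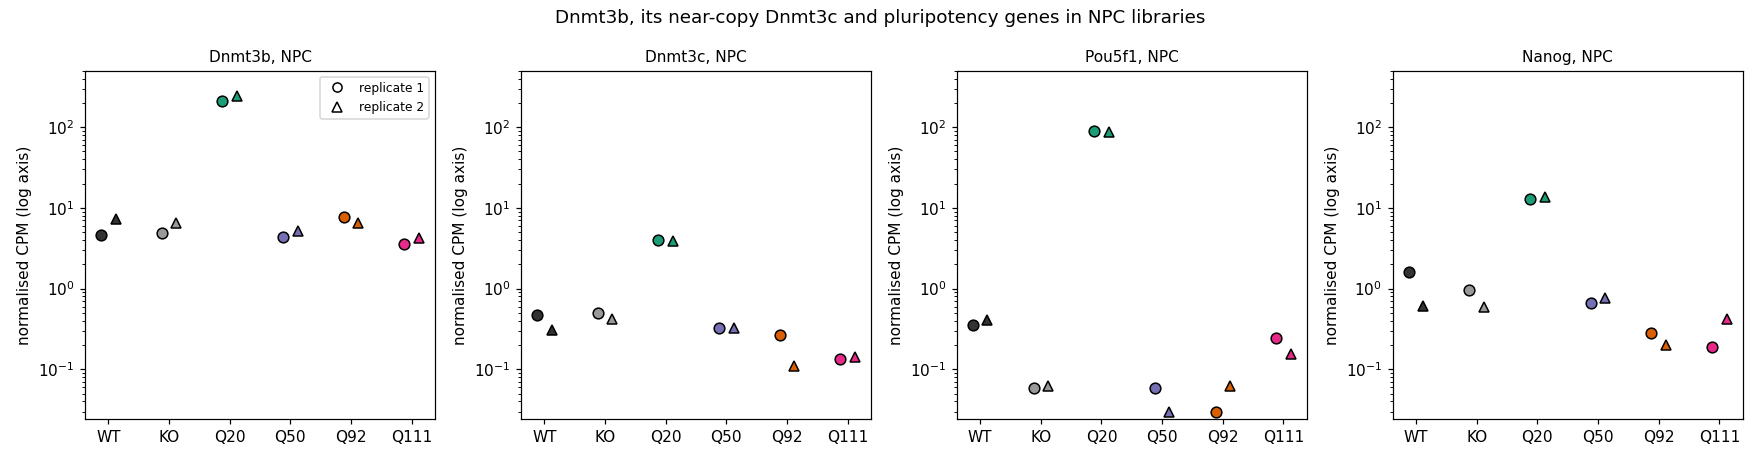
Normalised CPM (log axis) of Dnmt3b, Dnmt3c, Pou5f1 and Nanog in each NPC library by genotype; circles are replicate 1, triangles replicate 2, and values under 0.03 CPM are drawn at 0.03. Both Q20 libraries are the highest in each panel, with Dnmt3b at 210.1 and 241 CPM and Pou5f1 at 90.1 and 87.4 CPM.

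In mESC, Dnmt3b had 296 and 295 CPM in WT, 161 and 200.1 in KO, 527 and 465 in Q20, 242 and 268 in Q50, 299.9 and 269.6 in Q92, and 466 and 436 in Q111. The Q20 and Q111 libraries were the 4 highest and the KO libraries the 2 lowest, and replicates lay close together. Without the replicate block, limma called none of the 8 genes in any mESC comparison of genotypes or with repeat length: KO against WT called 0.0144% of all genes tested, Q20 against WT 0.323%, Q50 and Q92 against Q20 0.00719% each, Q111 against Q20 0%, and a test for any difference among genotypes 0.201%. At an unadjusted p under 0.05 the count was 1 in each of the 5 pairs, 2 for any difference and 0 for the slope, which itself called 0% of genes. On recovered reads edgeR called 0 in all 7 and DESeq2 called 1 in 5 of them, Dnmt3b each time.

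Dnmt3b in mESC was 0.74 higher in Q20 than in WT (SE 0.17, limma's adjusted p = 0.115). It was -0.71 in KO against WT (SE 0.17, limma's adjusted p = 0.702), -0.56 without the library labelled KO 1 and -0.87 without KO 2. Against Q20 it was -0.96 in Q50 and -0.80 in Q92 (SE 0.17 each, limma's adjusted p = 0.252 and 0.355), and -0.13 in Q111 (limma's adjusted p = 0.999). The test for any difference gave F = 21.4 with limma's adjusted p = 0.0521.

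Replicate numbers pair the mESC libraries, so the fit with the replicate number as a block stands beside these. With the block, limma called Dnmt3b (0.74, SE 0.14, limma's adjusted p = 0.0197), Dnmt1 (-0.38, SE 0.09, limma's adjusted p = 0.0342) and Tet2 (-0.91, SE 0.22, limma's adjusted p = 0.0410) in Q20 against WT, where it called 10.6% of all genes. In Q50 against Q20 it called Dnmt3b (-0.96, SE 0.14, limma's adjusted p = 0.0356) among 0.984% of genes. For any difference among genotypes it called Dnmt1, Dnmt3b, Uhrf1 and Tet2 among 8.67% of genes, with limma's adjusted p = 0.0446, 0.00950, 0.0246 and 0.0350. KO against WT, Q92 and Q111 against Q20 and the slope called none of the 8 by limma with the block, with 1, 4, 2 and 0 at an unadjusted p under 0.05, where 0.115%, 0.46%, 0.0575% and 0% of all genes were called.

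Dppa3 and Rhox5, both in the lists of genes tied to methylation, were also highest in Q20 and Q111 mESC. Dppa3, a factor that keeps UHRF1 from chromatin and so guards against methylation, had 2.59 and 2.37 CPM in WT, 1.76 and 1.76 in KO, 48.3 and 24.1 in Q20, 14.2 and 15.0 in Q50, 6.53 and 4.91 in Q92, and 41.7 and 29.2 in Q111. Rhox5, a homeobox gene on the list of germline genes silenced by promoter methylation, had 40.0 and 31.5 CPM in WT, 17.2 and 14.8 in KO, 96.1 and 103 in Q20, 33.5 and 30.9 in Q50, 20.2 and 19.8 in Q92, and 115 and 95.1 in Q111. A place on the list does not show that Rhox5 marks germ cells. No library of the other groups reached those of Q20 and Q111 in either gene. In Q20 against WT Dppa3 rose by 3.34 (SE 0.35, limma's adjusted p = 0.0161) and Rhox5 by 1.46 (SE 0.21, limma's adjusted p = 0.0401).

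Rhox5 also fell by 2.26 in Q92 against Q20 (SE 0.21, limma's adjusted p = 0.0316). With the replicate block Rhox5 was also called in Q50 against Q20 (-1.60, SE 0.14, limma's adjusted p = 0.0150, against 0.104 without it), and Dppa3 in Q92 against Q20 (-2.40, SE 0.27, limma's adjusted p = 0.0271, against 0.189 without it). Without the block Rhox5 was the only gene called of 18 germline genes in Q20 against WT and in Q92 against Q20. The median of the 18 was -0.60 in Q20 against WT, against -0.04 over all genes. In that comparison Dppa3 was the only gene called of 20 recruitment and protection genes without the block. The median of the 20 was -0.28. Feeder fibroblast markers (8 genes) summed to 14.1 to 20.1 CPM in WT and KO mESC and to 49.5 to 73.1 CPM in the knock-in lines, and their part in these differences was not tested. Dnmt3c in mESC ranged from 4.17 to 15.2 CPM, with r of 0.960 to Dnmt3b. Ncbp3 and 1700013H16Rik were nearer to Dnmt3b, with r of 0.968 and 0.961.

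**Figure D4:**
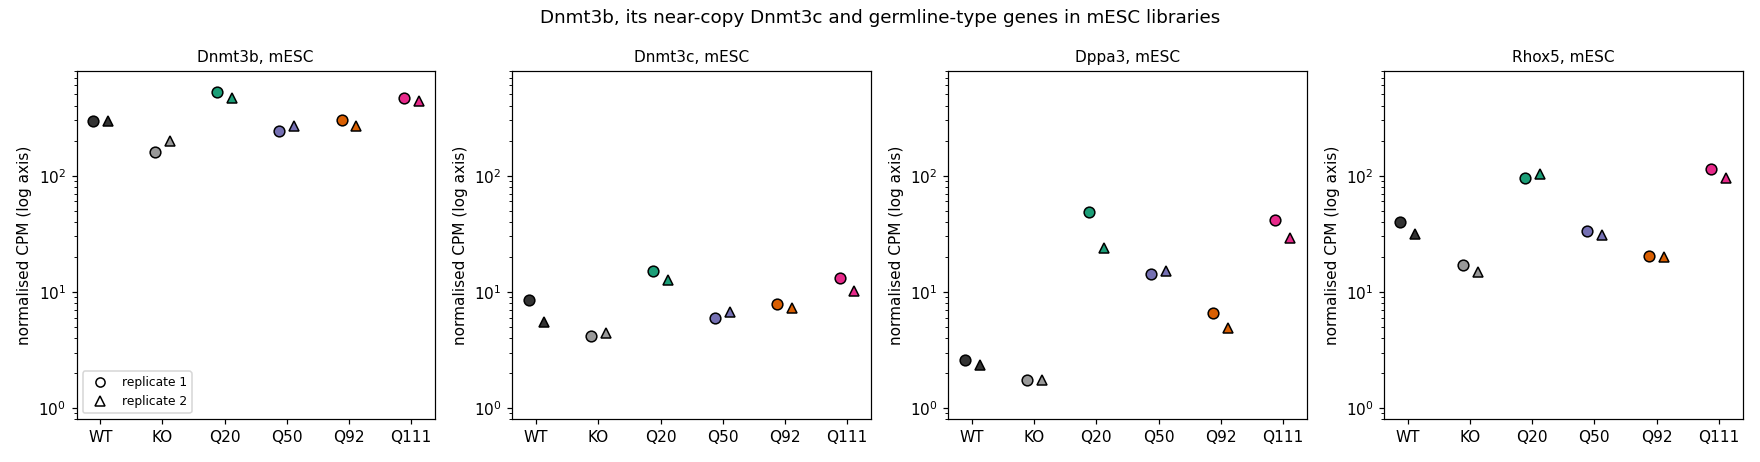
Normalised CPM (log axis) of Dnmt3b, Dnmt3c, Dppa3 and Rhox5 in each mESC library by genotype; circles are replicate 1 and triangles replicate 2. The Q20 and Q111 libraries are the 4 highest in every panel, with Dnmt3b at 436 to 527 CPM.

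The change of Dnmt3b in the Q20 line against WT differed between the cell types. The change in NPC exceeded that in mESC by 4.31 (SE 0.28, limma's adjusted p = 2.84e-07), in a comparison that called 4.27% of genes and no other of the 7 methylation genes. For KO against WT the difference between cell types called none of the 7 (limma, 0.0406% of all genes, 2 at an unadjusted p under 0.05).

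Dnmt3a, the other writer of new methylation, was called in none of the limma comparisons above. In NPC it had 223 and 201 CPM in WT, 225 and 169 in KO, 102 and 195 in Q20, 173 and 191 in Q50, 200.5 and 214 in Q92, and 163 and 58.4 in Q111. The lowest library, Q111 replicate 2, stood apart from its own replicate. In mESC it ranged from 116 to 209 CPM, and the KO pair alone spanned 118 to 209 CPM.

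Dnmt3l, the cofactor of the DNMT3 enzymes, differed in mESC mainly between replicates. It had 264 and 510.1 CPM in WT, 235 and 447 in KO, 162 and 446 in Q20, 142 and 283 in Q50, 215 and 414 in Q92, and 139 and 429.9 in Q111. Replicate 2 was the higher library in all 6 genotypes, and every group overlapped every other. The change of replicate 2 against replicate 1 was 1.15 (SE 0.11, limma's adjusted p = 0.000305), or 2.21-fold.

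Tet2 followed the same split in mESC, with 149.6 and 306 CPM in WT, 183 and 287 in KO, 70.3 and 182 in Q20, 112 and 326 in Q50, 132 and 335 in Q92, and 55.5 and 169.7 in Q111. Replicate 2 exceeded replicate 1 in 6 of 6 genotypes, by 1.25 (SE 0.13, limma's adjusted p = 0.000343), or 2.38-fold. Dnmt1 and Uhrf1 were higher in replicate 2 in 6 of 6 genotypes too, by 0.35 (SE 0.05, limma's adjusted p = 0.00133) and 0.38 (SE 0.09, limma's adjusted p = 0.0137).

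Tet1 in mESC had 350.1 and 449 CPM in WT, 541 and 487 in KO, 260.1 and 453 in Q20, 463 and 639.8 in Q50, 426 and 664 in Q92, and 254 and 549 in Q111. Replicate 2 was higher in 5 of 6 genotypes, with KO reversed, and the change was 0.54 (SE 0.15, limma's adjusted p = 0.0213), a call lost when a Q20 or Q92 library was left out (limma's adjusted p up to 0.0589). In all, 5 of the 8 genes were called higher in replicate 2 and none lower, where 43.3% of all genes were called. The median of the 8 was 0.37, against 0.00 over all genes tested.

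The other 3 genes were not called by replicate in mESC. Dnmt3b differed by 0.00 (SE 0.08, limma's adjusted p = 0.966), Dnmt3a by 0.23 (SE 0.13, limma's adjusted p = 0.180) and Tet3 by -0.45 (SE 0.19, limma's adjusted p = 0.0912). Without either Q111 library Tet3 was called lower in replicate 2, at -0.62 (limma's adjusted p = 0.0175 and 0.0176). In NPC the replicate number called none of the 7 genes and 0% of all genes by limma, with 1 of the 7 at an unadjusted p under 0.05, and none by edgeR or DESeq2. Pou5f1 was also higher in mESC replicate 2, by 0.74 (SE 0.11, limma's adjusted p = 0.00157), while Nanog was not called (0.35, SE 0.28, limma's adjusted p = 0.352). The summed level of the 10 pluripotency markers in mESC was lower in replicate 2 in WT, Q92 and Q111 and higher in KO, Q20 and Q50. What the replicate number stands for is not given in the labels, and its part was not tested.

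**Figure D5:**
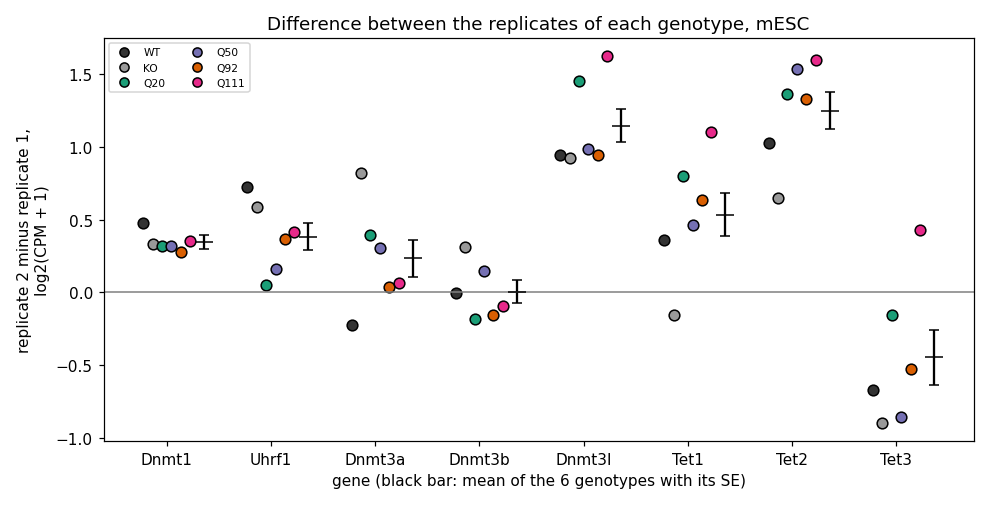
Difference between replicate 2 and replicate 1 in log2(CPM + 1) for each gene in mESC, with a point for each genotype and a black bar for the mean of 6 with its SE. Dnmt1, Uhrf1, Dnmt3l and Tet2 lie above 0 in all 6 genotypes, by 1.15 on average for Dnmt3l and 1.25 for Tet2, while Dnmt3b centres on 0.00.

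The nearest genes to Dnmt3l in mESC were Arntl, Rtel1 and Dppa2 (r 0.980, 0.965 and 0.964), of which Dppa2 is a factor of early embryos and pluripotent cells. Those nearest to Tet2 were Mras, Uba1 and Bicral (r 0.960, 0.957 and 0.955), and those nearest to Tet1 were St5, Troap and Mapk1ip1l (r 0.958, 0.958 and 0.949). For Dnmt3a they were Zfp605, Pyroxd1 and Ing3 (r 0.881, 0.843 and 0.840), and for Tet3 Ifngr2, Chst11 and Foxm1 (r 0.911, 0.890 and 0.887). The part of the replicate number in these values was not tested.

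Among the erasers in NPC, Tet1 had 64.7 and 57.5 CPM in WT, 46.5 and 25.4 in KO, 68.4 and 73.8 in Q20, 30.8 and 35.4 in Q50, 64.1 and 69.3 in Q92, and 36.5 and 45.4 in Q111. KO, Q50 and Q111 lay below WT, Q20 and Q92, with no overlap between these sets. Q50 against Q20 was -1.08 (SE 0.26, limma's adjusted p = 0.0214), and without any one of the 4 libraries limma's adjusted p ran from 0.0717 to 0.122. Q111 against Q20 was -0.79 (SE 0.26, limma's adjusted p = 0.0524) and KO against WT -0.81 (SE 0.26, limma's adjusted p = 0.208), neither of them called. Leaving out 1 library moved the latter from -1.23 without KO replicate 1 (limma's adjusted p = 0.0452) to -0.38 without KO replicate 2, which was not called.

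KO against WT called none of the 7 genes in NPC, and 1.42% of all genes, with 1 of the 7 at an unadjusted p under 0.05 and none by edgeR or DESeq2. The test for any difference among genotypes called Tet1 (limma's adjusted p = 0.0257), Tet3 (limma's adjusted p = 0.0327) and Dnmt3b (limma's adjusted p = 9.80e-06), where it called 38% of all genes. Leaving out any one of the Q20, Q50 or Q92 libraries ended the calls of Tet1 and Tet3 there, with limma's adjusted p from 0.0587 to 0.124, and left that of Dnmt3b. Without Q111 replicate 1 both were lost too (0.0553 and 0.0661), and without Q111 replicate 2 Tet3 was (0.0694).

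Tet3 in NPC had 73.1 and 79.5 CPM in WT, 79.8 and 57.7 in KO, 56.9 and 46.3 in Q20, 85.6 and 84.0 in Q50, 104 and 94.7 in Q92, and 73.3 and 66.1 in Q111. Q20 held the 2 lowest libraries and Q92 was the highest group. Against Q20, Tet3 rose by 0.71 in Q50 (SE 0.18, limma's adjusted p = 0.0254) and by 0.94 in Q92 (SE 0.18, limma's adjusted p = 0.00635). Leaving out a library left the Q50 call at limma's adjusted p = 0.0510 to 0.159, and the Q92 call at 0.0517 without Q20 replicate 2 and 0.0523 without Q92 replicate 1. In mESC Tet3 ranged from 5.09 to 16.8 CPM.

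Tet2 in NPC had 153 and 73.7 CPM in WT, 120.2 and 90.1 in KO, 102 and 103 in Q20, 99.8 and 67.7 in Q50, 82.7 and 84.5 in Q92, and 51.3 and 40.8 in Q111. Both Q111 libraries lay below all others. Q111 against Q20 was -1.15 (SE 0.33, limma's adjusted p = 0.0351), and 0.0863 to 0.167 with any one of the 4 libraries left out. The slope with repeat length was -0.91 (SE 0.28, limma's adjusted p = 0.0482) and 0.133 without Q111 replicate 2, where it was -0.66. The slope call was also lost without either Q20 library, without Q50 replicate 1 and without Q111 replicate 1, with slopes of -0.84 to -0.94. It was lost too by edgeR (adjusted p = 0.0556), and by limma without the filter on low values (adjusted p = 0.0519) or with the replicate block (0.0669). The same held for limma on log2 of the length (adjusted p = 0.0775), without the Q20 line (0.231) and with 1 mean value per line.

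Tet2 ran against Uhrf1 over the 12 NPC libraries (r -0.872, rho -0.888), and Dnmt1 ran with Uhrf1 (r 0.947, rho 0.916), as descriptions of libraries that share genotype and scaling. The genes nearest to Tet2 were Hbp1, Gapdhs and Txndc16 (r 0.948, 0.945 and 0.945). Those nearest to Tet1 were Il4ra, Jmjd8 and Rpap1 (r 0.879, 0.870 and 0.870), to Tet3 Mgat5, Sav1 and Dusp10 (r 0.910, 0.893 and 0.886) and to Dnmt3a BC005561, Epm2aip1 and Prrg1 (r 0.906, 0.851 and 0.847).

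Other genes of the pathway moved with repeat length in NPC, against a background of 12% of all genes rising and 10.1% falling. Of 18 genes of recruitment and protection in the NPC table (20 were listed) 8 rose and none fell (median slope 0.54, against 0.04 over all genes). They were led by the replication clamp Pcna (1.79, SE 0.14, limma's adjusted p = 0.000665), the remodeller Hells (1.72, SE 0.15, limma's adjusted p = 0.000828) and the ligase Lig1 (1.39, SE 0.13, limma's adjusted p = 0.000838). All 3 act at the replication fork or in maintaining methylation there. After rescaling every column to the same total 4 rose and 1 fell.

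Of 18 genes that supply methyl groups or one-carbon units 8 rose and 1 fell (median 0.63). Shmt1 (1.76, SE 0.23) and the thymidylate synthase gene Tyms (1.60, SE 0.17), which serve thymidine synthesis, rose most, with limma's adjusted p = 0.00243 and 0.00112. Cbs, which draws homocysteine into cysteine synthesis, fell by 2.49 (SE 0.43, limma's adjusted p = 0.00611).

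On the list of 11 readers of methylated DNA, Mbd3 (1.29, SE 0.16, limma's adjusted p = 0.00201) and Mbd2 (0.56, SE 0.16, limma's adjusted p = 0.0374) rose and none fell. Both are subunits of NuRD complexes, and a place on the list does not show binding to methylated DNA. Of 14 repair genes Apex1 (0.94, SE 0.20, limma's adjusted p = 0.0134) and Xrcc1 (0.80, SE 0.23, limma's adjusted p = 0.0438) rose, and the glycosylase Neil2 fell by 1.29 (SE 0.35, limma's adjusted p = 0.0342). Of 14 TET cofactor and partner genes only D2hgdh, which clears the TET inhibitor 2-hydroxyglutarate, was called, falling by 1.23 (SE 0.28, limma's adjusted p = 0.0177). After that rescaling the calls of Mbd2 and Xrcc1 were lost, and Mbd5, Gadd45b, Cxxc4 and Brdt were called lower. Only 3 of the 18 germline genes passed the filter in NPC, and limma called none, with 1 at an unadjusted p under 0.05.

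In Q20 against WT in NPC, Neil2 (1.36, SE 0.10, limma's adjusted p = 4.75e-05), D2hgdh (1.03, SE 0.19, limma's adjusted p = 0.00721) and the germline gene Brdt (0.96, SE 0.21, limma's adjusted p = 0.0167) rose. Mbd1 fell by 0.64 (SE 0.16, limma's adjusted p = 0.0331) and Mbd2 fell by 0.49 (SE 0.12, limma's adjusted p = 0.0329), and neither was called after the rescaling. None of the recruitment and protection genes and none of the 20 S phase genes was called there by limma, with 3 and 0 at an unadjusted p under 0.05. That comparison called 14.5% of all genes tested, 9.97% higher and 4.57% lower. The WT libraries had 1027 and 4096 CPM of summed S phase genes, so a missing call for these genes says little about Q20.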

How the data were processed

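The deposited values are a signal the authors named CPM, 1 table per cell type. All values were whole multiples of 1 step per library (tolerance 0.01; 100% in every library), which gave back whole reads, and column totals ran from 900342 to 1080734, so they are not plain CPM. Reads were processed with CASAVA 1.8 and STAR on GRCm38.p6, per the submitters' processing notes; the counting tool, annotation and use of strand are not given in the sources used here. The identifiers matched GENCODE M21 for 99.94% (mESC) and 99.95% (NPC) of genes.

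Values were compared as log2(CPM + 1), a scale that understates changes of low genes, with limma 3.58.1 in R 4.3.3 (variance trend, two-sided, all 6 groups in a fit per cell type), with Benjamini-Hochberg adjustment over all genes tested and a threshold of 0.05. Slopes used the 8 knock-in libraries of a cell type. Genes called by edgeR 4.0.16 and DESeq2 1.42.0 on recovered reads are alternatives. The fits were tested on simulated data. Figures used matplotlib 3.10.9 and Python 3.11.15.

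Replicate numbers were taken to pair mESC libraries: the differences between replicates correlated in all 15 pairs of genotypes (0.25 to 0.55, with over 0.1 required). The genes named are the 8 methylation genes, at most the 3 called genes of each pathway list with the largest change in each direction, the 3 genes nearest to each by Pearson r, and Htt; Dnmt3c, Pou5f1 and Nanog were added after their values were seen, as was the promoter motif. Some genes that this rule names are not reported here. The genes and lists were chosen with earlier results of these data known.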

Additional observations from a re-analysis of the deposited data

Results flagged for a closer look

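In all, 3 differences between the cell types stood past the test of the difference itself. Dnmt3b in the Q20 line against WT was 0.74 in mESC and 5.05 in NPC, a difference of 4.31 (SE 0.28, limma's adjusted p = 2.84e-07). Both Q20 NPC libraries stood above all 10 others. The slope of Dnmt1 with repeat length was 0.09 in mESC and 1.48 in NPC, a difference of 1.38 (SE 0.26, limma's adjusted p = 0.00812). The slope of Uhrf1 was -0.58 in mESC and 1.57 in NPC, a difference of 2.15 (SE 0.41, limma's adjusted p = 0.00933).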

How the results depend on the processing

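Of 702 alternative values for single genes, 606 kept their direction and side of the threshold, 65 lost the call, 29 gained it and 2 turned direction. With WT in place of Q20 as reference in NPC, Dnmt3b in Q92 was 0.24 (limma's adjusted p = 0.547) and Tet3 in Q111 was -0.13 (limma's adjusted p = 0.635). Of 294 alternative counts of genes called, 46 moved. In mESC, DESeq2 called 1 gene in place of 0 in KO against WT, Q20 against WT, Q50 and Q92 against Q20 and any difference. The replicate block called 3 in Q20 against WT, 1 in Q50 against Q20 and 4 for any difference, which also called 1 without the filter and 1 after rescaling every column to the same total. The block also raised the count of all genes called from 45 to 1475 in Q20 against WT and from 28 to 1206 for any difference. In NPC, DESeq2 called 2 in Q20 against WT (in place of 1) and 4 in Q111 against Q20 (in place of 2). With only the libraries of both groups, 5 genes were called in each of Q50, Q92 and Q111 against Q20, and with WT as reference 0, 0 and 1. For any difference in NPC the count was 0 without the Q20 line, an alternative chosen after seeing the data. The NPC slope called 2 with the replicate block, 0 with 1 mean per line and 2 without the Q20 line, in place of 4. The cause of these changes was not tested, apart from the fewer lines or groups compared. Leaving out 1 library each time gave 4 to 6 for the mESC replicate comparison, and in NPC 0 to 1 for KO against WT, 1 to 2 for Q20 against WT, 1 for Q50 against Q20, 1 to 2 for Q92 against Q20, 1 for Q111 against Q20, 1 to 6 for any difference (6 without either WT library, 1 without either library of Q20, Q50 or Q92) and 2 to 4 for the slope. There an arm of 1 library is assumed to vary like the others. In NPC 3 of 15 pairs of genotypes correlated by replicate number (from -0.05 to 0.47), so the numbers were not taken to pair those libraries, and the block changed no other count of calls in NPC by over 1.5 times. Rescaling every column to the same total moved the median change of all genes by -0.21 for the NPC slope and by 0.15 for Q20 against WT. With 2 libraries a group, small changes were not detectable; the fewest recovered reads of any gene in a table was 7.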
